A study of Mus musculus with 2 samples.

Results

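Mural cells are the contractile cells that wrap blood vessels: pericytes around capillaries, and vascular smooth muscle cells around arterioles, arteries and veins. They were taken here as every kept cell with a UMI of at least 3 of the 8 genes *Rgs5*, *Notch3*, *Myh11*, *Higd1b*, *Kcnj8*, *Cspg4*, *Mcam* and *Rgs4*, and with no UMI of *Cdh5*, an endothelial cadherin, or *Ptprc*, the CD45 antigen of blood cells. A UMI is a molecular identifier that counts 1 captured transcript, and levels below are in CPM, the summed UMIs of a gene scaled to a fixed total of UMIs. This rule found 103 of 1819 kept cells.

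The study compared the gingiva and alveolar bone surface of wild-type C57BL/6 mice, 8 weeks old, with and without ligature-induced periodontitis (LIP), a model in which a thread tied around a molar provokes inflammation and bone loss. The LIP library was made 7 days after the ligature was placed, and the control library from mice without a ligature. Each condition is 1 library that pools the cells of 5 mice, so no test between conditions could be made, and every interval below covers counting error only and not the spread between mice. The control library held 1169 barcodes with 16472915 UMIs and the LIP library 1212 barcodes with 14236327 UMIs, of which 883 and 936 were kept. The libraries shared 2 barcodes, and no barcode was a mural cell in both.

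Smooth muscle cells contract through actin and smooth muscle myosin, which is switched on when calcium activates myosin light chain kinase. Pericytes carry less of this apparatus, share a basement membrane with the endothelium, and are held to the vessel by platelet-derived growth factor acting on *Pdgfrb*. Between them lies a continuum along the vascular tree, and in many tissues *Rgs5*, *Kcnj8* and *Abcc9* are used to mark its pericyte end and *Myh11* and *Cnn1* its smooth muscle end.

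Mural cells made up 53 of 883 kept control cells (6.00%, 95% Clopper-Pearson interval 4.53 to 7.78) and 50 of 936 kept LIP cells (5.34%, 3.99 to 6.98). The intervals overlap, and each holds the other share. With a mitochondrial limit of 5% the shares were 2.75% and 2.45%. With cells of 3 or more markers of 1 other class left out they were 1.25% and 1.71%. A share of cells moves with every other class, and neutrophils alone went from 58 to 331 cells by a gate of their own genes. The median mural cell held 12289 UMIs in the control and 13379 in the LIP library.

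The name was checked against 20 mural genes that the rule did not use, among them *Tagln*, *Acta2*, *Pdgfrb*, *Abcc9*, *Des*, *Cnn1* and *Myl9*. The cells were divided by these genes. In 45 control and 44 LIP cells the summed UMIs of these mural genes exceeded those of each of 12 lists of other cell classes (counted without *Col1a1* and *Col1a2*), and every one of them had 4 or more of the 8 gate genes. They carried a UMI of 10 to 17 of the 20 mural genes in the control and of 10 to 18 in the LIP library. In the other 8 control and 6 LIP cells the genes of another class outweighed the mural genes, and these cells carried at most 9 and at most 8 of the 20. Since the division used the same 20 genes, these numbers of mural genes partly restate it. In 8 of 8 control and 5 of 6 LIP cells of this kind exactly 3 gate genes had a UMI, the fewest that the rule allows.

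These 14 cells went against the mural name. In the control library 4 were led by keratinocyte genes, 1 by the myoepithelial list, which shares *Krt5* and *Krt14* with the keratinocyte list, 2 by Schwann cell genes and 1 by fibroblast genes. In the LIP library 4 were led by fibroblast genes, 1 by the myoepithelial list and 1 by Schwann cell genes. They were deeper than the other mural cells, at a median of 37129 UMIs against 12153 in the control and of 31727 against 12319 in the LIP library, and the part of depth in their meeting the rule was not tested. Scrublet, which scores barcodes that resemble a sum of 2 cells, marked 4 control barcodes and 1 LIP barcode and none of the mural cells.

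**Figure D1:**
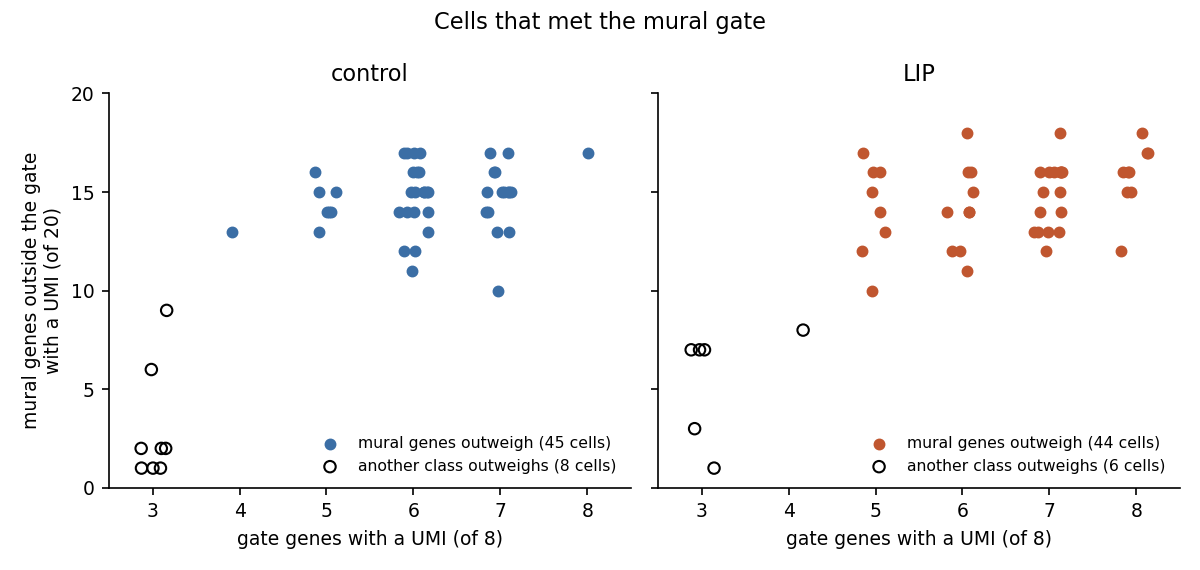
Each point is 1 cell that met the mural rule, placed by the number of gate genes with a UMI (x axis, of 8, spread sideways for clarity) and the number of 20 other mural genes with a UMI (y axis), control on the left and LIP on the right. Open circles, the 8 control and 6 LIP cells in which another class outweighs, lie at 9 mural genes or fewer, and filled circles at 10 or more.

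Just outside the rule, 46 control and 35 LIP cells had 2 gate genes and no *Cdh5* or *Ptprc* UMI. Their median was 2 of the 20 mural genes in both libraries, and 4 of the 46 and 11 of the 35 had 5 or more. Just inside it, the 8 control cells with 3 gate genes had a median of 2 mural genes and the 5 such LIP cells a median of 7. A further 2 control and 3 LIP cells had 3 or more gate genes but a *Cdh5* or *Ptprc* UMI, with medians of 8.5 and 14 mural genes. The 45 control (5.10% of kept cells) and 44 LIP cells (4.70%) without the 14 are called core mural cells below. This division was made after the data had been seen, and some of the results are given with and without the 14 cells.

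Markers of other cell types were found in the core cells at the following levels. Of 10 endothelial genes the control core cells held 5, summing to 359.7 CPM, with *Esam*, which mural cells also express, at 273 CPM and *Pecam1*, *Kdr*, *Tie1*, *Tek* and *Egfl7* at 0. The LIP core cells held 8 at a sum of 451.6 CPM, with *Esam* at 317 CPM and *Kdr* and *Pecam1* at 0. The 10 keratinocyte genes summed to 6234 CPM in all control mural cells and to 252 CPM in the core, led by *Perp*, and to 1150 and 97.7 CPM in the LIP library. The 10 fibroblast genes summed to 2183 CPM in the control core and to 3024 CPM in the LIP core, where *Pdgfra* was at 0, and *Col1a1* was the most abundant in both. In all mural cells they summed to 2201 and 11392 CPM. A single control core cell held 350 fibroblast UMIs beside 403 UMIs of the 20 mural genes, and a single LIP core cell 153 Schwann cell UMIs beside 196. Schwann cell genes summed to 27.8 and 288 CPM, with *Sox10* at 0 in the control core, and neutrophil genes to 120 and 298 CPM, with *Cxcr2* at 0 in both.

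The gate genes themselves are a description, since they chose the cells. In the core cells *Notch3*, the Notch receptor of mural cells, had a UMI in 43 of 45 control and 44 of 44 LIP cells, at 608 and 786 CPM over the summed cells. *Mcam*, an adhesion molecule also known as CD146, was at 641 CPM in the control and 581 CPM in the LIP cells, and *Rgs4*, a brake on G protein signalling, at 471 and 395 CPM. *Higd1b*, a small mitochondrial protein gene, stood at 396 and 513 CPM, and *Cspg4*, the NG2 proteoglycan, at 181 and 288 CPM. *Kcnj8*, the pore of an ATP-sensitive potassium channel, stood at 182 and 160 CPM and was found in 18 of 45 control and 28 of 44 LIP cells. In neutrophils, which should lack them, *Kcnj8* and *Higd1b* had no UMI in 58 control or 331 LIP cells. For the share of neutrophils with a UMI the floor of 3 counts gives limits of 5.17% and 0.906%, and the exact two-sided interval reaches 6.16% and 1.11%. *Mcam* had a UMI in 8 of 58 control (13.8%) and 11 of 331 LIP neutrophils (3.32%), and *Rgs5* in 1 of 58 (1.72%) and 20 of 331 (6.04%). Fibroblasts had a *Kcnj8* UMI in 20 of 108 control (18.5%) and 10 of 48 LIP cells (20.8%) and a *Cspg4* UMI in 23 of 108 (21.3%) and 16 of 48 (33.3%). The median depth was 11781 UMIs in control and 22655 UMIs in LIP fibroblasts.

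Beyond the gate, genes were ranked in the core mural cells against the kept cells that did not meet the rule, by the log2 ratio in the lower library. The 20 highest were, in order, *Tagln*, *Acta2*, *Gm13889*, *Myl9*, *Mustn1*, *Mylk*, *Actg2*, *Ppp1r14a*, *Lmod1*, *Aoc3*, *Des*, *Rasl11a*, *Cox4i2*, *Pln*, *Olfr558*, *Vtn*, *Sparcl1*, *Pde3a*, *Gucy1a1* and *Parm1*. These also describe what the rule and the choice of core cells select. Several of them, *Tagln* and *Acta2* included, belong to the 20 mural genes used for that choice. *Tagln*, which encodes the actin-bundling protein transgelin, had log2 ratios of 7.93 in the control and 6.18 in the LIP library. *Acta2*, smooth muscle actin, had ratios of 7.18 and 6.16, and *Myl9*, a regulatory light chain of myosin, of 7.48 and 5.70. Several others serve contraction or its control. *Mylk* is the kinase of that light chain, *Ppp1r14a* an inhibitor of its phosphatase, *Gucy1a1* a subunit of the nitric oxide receptor, and *Pln*, phospholamban, a brake on the calcium pump. Here and below, a log2 ratio is taken between summed CPM values with 10 CPM added to both sides, and a gene counts as measured with 50 or more UMIs over both sides.

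Stretches before the starts of 2 of these genes and 2 gate genes are shown because the contrast described next runs between contractile and pericyte genes. Each is the 200 bases that end 51 bases before the start of the gene, from RefSeq on GRCm38.p6, read 5′ to 3′ on the strand of the gene, with no annotated exon in it. Capitals mark a CArG box, the site bound by serum response factor, in the exact form CCWWWWWWGG, where W is A or T. Both strands were searched, which read alike for this motif, and near matches were not counted. *Myl9* (chr2:156775214-156775413, plus strand) and *Lmod1* (chr1:135324563-135324762, plus strand), which encodes an actin nucleator of smooth muscle, stand for the contractile genes, and *Rgs5* (chr1:169655251-169655450, plus strand) and *Kcnj8* (chr6:142571665-142571864, minus strand) for the pericyte genes.
Myl9: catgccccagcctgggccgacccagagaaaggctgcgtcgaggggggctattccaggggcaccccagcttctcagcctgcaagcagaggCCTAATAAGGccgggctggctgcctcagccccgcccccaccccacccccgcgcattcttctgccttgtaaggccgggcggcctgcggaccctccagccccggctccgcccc
Lmod1: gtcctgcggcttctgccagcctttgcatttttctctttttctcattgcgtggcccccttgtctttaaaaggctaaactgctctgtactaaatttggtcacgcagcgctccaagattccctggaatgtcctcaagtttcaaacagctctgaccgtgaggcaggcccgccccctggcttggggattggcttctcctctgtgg
Rgs5: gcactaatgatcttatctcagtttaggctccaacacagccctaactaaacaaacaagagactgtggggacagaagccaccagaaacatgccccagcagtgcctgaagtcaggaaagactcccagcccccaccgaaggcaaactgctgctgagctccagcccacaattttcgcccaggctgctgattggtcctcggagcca
Kcnj8: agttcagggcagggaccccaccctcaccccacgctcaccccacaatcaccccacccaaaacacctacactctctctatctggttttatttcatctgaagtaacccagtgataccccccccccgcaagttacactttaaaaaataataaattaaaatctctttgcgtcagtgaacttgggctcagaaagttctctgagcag

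The *Myl9* box lies 161 to 152 bases before the start, and the other 3 stretches hold no match to the exact form. Over the 250 bases before each start, 4 of the 28 contractile genes with a window held a CArG box (14.3%). They were *Filip1l*, *Myl6*, *Myl9* and *Vcl*. Over all genes 439 of 27025 did (1.62%). Of the pericyte genes 0 of 15 did, a count too small to read against that share. A match is a description of letters and not a site of binding. The table of windows holds none for *Tagln* and *Myh11*.

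The contrast of cells with and without a *Myh11* UMI was asked of all mural cells first. *Myh11*, the smooth muscle myosin heavy chain (chr16:14194535-14291372, GRCm38), had a UMI in 44 of 53 control cells (83.0%) and 41 of 50 LIP cells (82%), with intervals of 70.2 to 91.9 and 68.6 to 91.4. With 2000 UMIs drawn at random from each cell, and 1 LIP cell with fewer set aside, these shares were 36 of 53 (67.9%) and 33 of 49 (67.3%). Background was low: 1 of 58 control neutrophils (1.72%) and 9 of 331 LIP neutrophils (2.72%) had a *Myh11* UMI, at a median of 7155 and 3886 UMIs per neutrophil. The shares of the libraries lay within each other's intervals and were lower at the lower depth.

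Of the genes measured in this contrast, 17.2% (465 of 2696) were at least 2-fold higher in the control cells with *Myh11* and 6.42% (173) at least 2-fold lower, and in the LIP library 16.2% (431 of 2656) were higher and 6.78% (180) lower. Contractile genes led the higher side, with 30 of 31 measured members of that list in the control and 29 of 30 in the LIP library. *Acta2* stood at 14272 CPM with and 179 CPM without *Myh11* in the control, and at 13406 and 1312 CPM in the LIP library. *Tagln* stood at 10528 and 117 CPM in the control and at 9394 and 384 CPM in the LIP library. The 15 genes ranked highest in both libraries were *Pcp4l1*, *Pln*, *Pdlim3*, *Tagln*, *Cxcl10*, *Atf3*, *Cnn1*, *Pi15*, *Mustn1*, *Nrip2*, *Rgs7bp*, *Map3k7cl*, *Myl9*, *Mylk* and *Fbxl22*. Of these, *Cxcl10* was very uneven between cells. In core cells high over low in *Myh11*, its log2 ratio was -7.04 in the control and 4.48 in the LIP library. Its rank is therefore not read as a link to *Myh11* shared by the libraries. In the contrast of cells with and without *Myh11*, the 15 genes ranked lowest were *Emp1*, *Prnp*, *Col8a1*, *Gpm6b*, *Krt14*, *Col6a2*, *Col5a1*, *S100a16*, *Lgals3*, *Sdc4*, *Mmp14*, *Tmsb10*, *Prdx6*, *Sat1* and *Capg*, which include a keratin of basal epithelium and chains of several collagens.

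This contrast mixed cell classes. Among the cells without *Myh11*, 5 of 9 in the control and 6 of 9 in the LIP library were cells led by another class. *Krt14*, a keratin of basal epithelium, stood at 6923 CPM in control cells without *Myh11* against 2245 CPM in those with it, and in the LIP library at 1704 against 30.3 CPM. *Col1a1*, the main chain of type I collagen, stood at 16112 CPM in LIP cells without *Myh11* and 1130 CPM in those with it. Of the pericyte list 3 of 13 measured genes were at least 2-fold higher with *Myh11* and 1 lower in the control, and 7 of 12 were higher and 1 lower in the LIP library, where 17.2% and 16.2% of all genes were higher and 6.42% and 6.78% lower, so that the control counts are near the shares over all genes. *Kcnj8* stood at 122 CPM with and 165 CPM without *Myh11* in the control and at 157 and 62.7 CPM in the LIP library, and *Higd1b* at 282 and 227 CPM and at 551 and 37.6 CPM.

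Within the core cells the level of *Myh11* gave another picture. The cells were divided at 1000 CPM of *Myh11*, chosen after the data had been seen, into 31 control and 29 LIP cells at or above it and 14 control and 15 LIP cells below it. Of these, 6 control and 10 LIP cells lay between 500 and 1500 CPM, close to the division. The depths were not equal, at a median of 13490 and 8762 UMIs per cell in the control and 13190 and 11307 in the LIP library. In the control 16% of 1801 measured genes were at least 2-fold higher in the *Myh11*-high cells and 8.22% lower, and in the LIP library 11.6% of 2089 were higher and 7.42% lower. Of 1615 genes measured in both, 142 were higher in both, which is 64.5% of the control and 62.8% of the LIP genes on that side, and 45 were lower in both, which is 33.8% and 60.8%.

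Contractile genes were higher with *Myh11* in both libraries, in 24 of 31 measured members in the control and 24 of 30 in the LIP library, where 16% and 11.6% of all genes were higher, and none was lower. The median log2 ratio over the list was 1.89 and 2.44, against 0.07 and -0.06 over all measured genes, and it did not move when genes at 0 were set to their bound. *Acta2* stood at 20535 CPM in the 31 *Myh11*-high and 3672 CPM in the 14 *Myh11*-low control cells, and at 18089 and 3312 CPM in the LIP library, log2 ratios of 2.48 and 2.45. In the control, single *Myh11*-high cells ran from 5908 CPM through a median of 19773 to 35097 CPM of *Acta2*, and *Myh11*-low cells from 0 through 1867 to 11945 CPM, so the groups overlap at their edges. In the LIP library *Myh11*-high cells ran from 0 through 13198 to 35021 CPM, with a UMI in 28 of 29, and *Myh11*-low cells from 0 through 2109 to 8665 CPM, so there the *Myh11*-high cells span the whole range of the *Myh11*-low cells. *Tagln* went from 14970 to 3427 CPM in the control and from 12924 to 1686 CPM in the LIP library. *Myl9* stood at 7769 and 2137 CPM in the control and at 6616 and 803 CPM in the LIP library, and *Lmod1* at 666 and 183 CPM and at 509 and 63.9 CPM.

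The genes with the steepest contrast were nearly absent from *Myh11*-low cells. *Pln* had a UMI in 26 of 31 *Myh11*-high and 0 of 14 *Myh11*-low control cells and in 16 of 29 and 0 of 15 LIP cells. Against a floor of 3 UMIs over the *Myh11*-low cells, *Pln* was at least 28.9-fold higher in the control and at least 38.3-fold higher in the LIP library. *Cnn1*, calponin, which restrains actomyosin, stood at 586 CPM against none in the control, at least 22.4-fold, and at 415 against 28.0 CPM in the LIP library. *Sorbs2*, an adaptor of the cytoskeleton, stood at 1563 against 26.2 CPM and at 800 against 16.0 CPM. *Itga8*, an integrin that binds matrix proteins, was found in 27 of 31 against 0 of 14 control cells and in 22 of 29 against 1 of 15 LIP cells. The other genes ranked highest in both libraries were *Fbxl22*, *Sh3bgr*, *Timp4*, *2900026A02Rik*, *Crispld2*, *Smtn*, *Ppm1l*, *Rcan2*, *Pdlim3*, *Pi15* and *Kcnab1*.

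Some receptors and channels of the vessel wall differed by *Myh11* level. *P2rx1*, an ATP-gated cation channel, stood at 178 CPM against none in the control and at 126 against 12 CPM in the LIP library. *Kcnab1*, a subunit of voltage-gated potassium channels, stood at 139 CPM against none and at 170 against 12 CPM. *Adra2a*, an adrenergic receptor, ran the other way, at 10.9 against 497 CPM and at 44.4 against 252 CPM. Of this list 5 of 14 measured genes were higher and 2 lower in the control, and 7 of 16 were higher and 2 lower in the LIP library, where 16% and 11.6% of all genes were higher and 8.22% and 7.42% lower. The 2 lower genes, *Adra2a* and *Abcc9* in both libraries, are too few to read against such shares. *Hes1*, a target of Notch, was higher in *Myh11*-high cells of both libraries, at 1072 against 523 CPM and at 630 against 200 CPM.

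Pericyte genes were lower in *Myh11*-high cells, in 9 of 12 measured members in the control and in 4 of 11 in the LIP library, where 8.22% and 7.42% of all genes were lower, and none was higher. The list medians were -1.75 and -0.62. *Abcc9*, the sulfonylurea receptor that pairs with *Kcnj8* and lies 16247 bases from it on chromosome 6, on the same strand, stood at 21.7 CPM in *Myh11*-high and 480 CPM in *Myh11*-low control cells, and at 49.4 and 244 CPM in the LIP library. *Kcnj8* and *Higd1b* are gate genes, and since a cell low in *Myh11* had to meet the rule through the other gate genes, their values are a description that the rule partly fixes. *Kcnj8* stood at 49.9 and 715 CPM in the control and at 93.8 and 268 CPM in the LIP library, and *Higd1b* at 176 and 1282 CPM and at 304 and 851 CPM. *Vtn* and *Colec11* differed in the control, at 239 against 1090 CPM and at 21.7 against 907 CPM. Their LIP ratios were 0.23 and -0.58 on the log2 scale, under 2-fold. *Colec11* rested on 1 of 31 *Myh11*-high control cells.

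**Figure D2:**
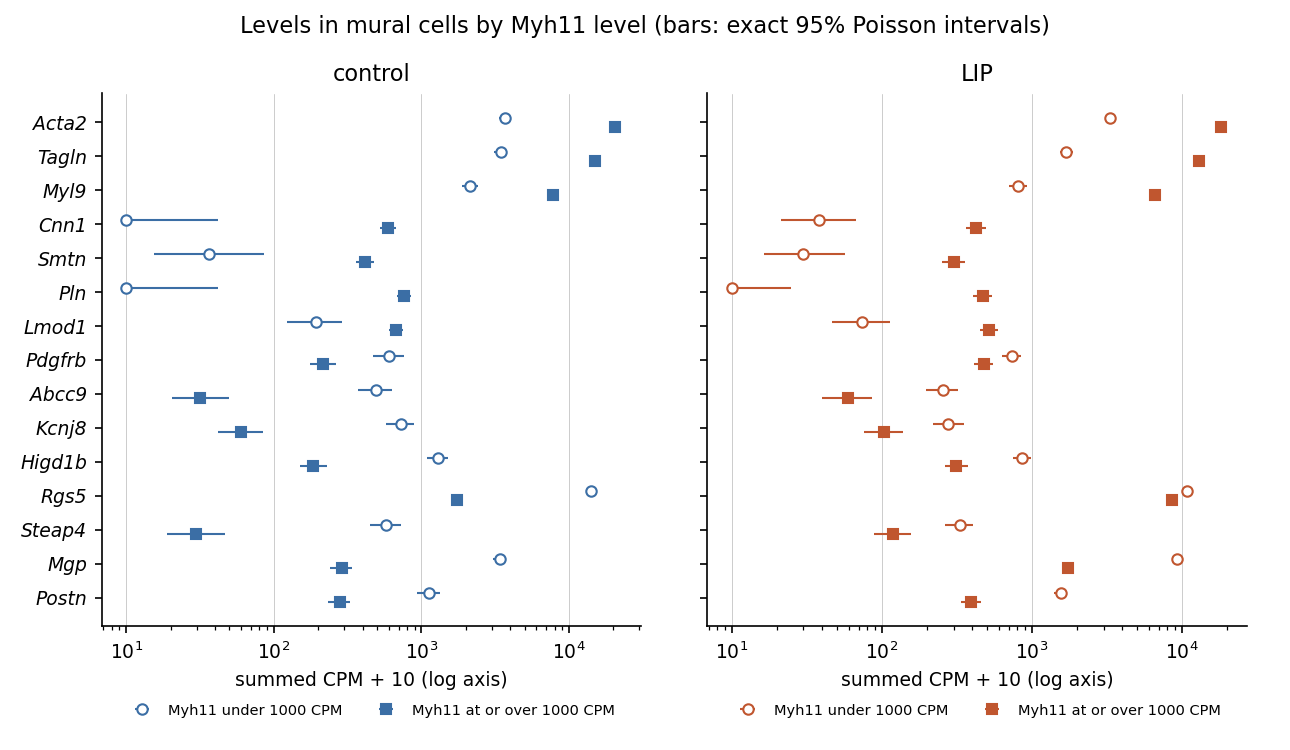
Summed level of each gene in core mural cells, in CPM with 10 added (x axis, log scale), with genes on the y axis, control on the left and LIP on the right; filled squares are cells at or over 1000 CPM of *Myh11*, open circles cells under it, and bars exact 95% Poisson intervals. Contractile genes lie further right as filled squares and *Kcnj8*, *Abcc9* and *Higd1b* as open circles in both libraries, whereas *Rgs5* lies at 1745 and 13980 CPM in the control and at 8512 and 10734 CPM in the LIP library.

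Several genes of the extracellular matrix were lower in *Myh11*-high cells. *Mgp*, matrix Gla protein, an inhibitor of calcification, stood at 278 against 3375 CPM in the control and at 1723 against 9296 CPM in the LIP library. *Postn*, periostin, stood at 269 against 1116 CPM and at 383 against 1550 CPM, with 52.3% of the control *Myh11*-low UMIs in 1 cell. *Col3a1* stood at 833 against 5328 CPM and at 1918 against 5221 CPM. Of the fibrillar and elastic matrix genes, 11 of 24 were lower and 4 higher in the control, and 16 of 26 lower and 3 higher in the LIP library, where 8.22% and 7.42% of all genes were lower and 16% and 11.6% higher, so that the higher members are near the share over all genes. Basement membrane genes were mixed, with 5 of 11 higher and 3 lower in the control and 4 of 15 higher and 7 lower in the LIP library, at medians of 0.63 and -0.51, against the same shares. *Ifitm1*, an interferon-induced membrane protein gene, stood at 47.7 against 837 CPM and at 205 against 1594 CPM, and *Gpx3*, a secreted glutathione peroxidase, at 21.7 against 863 CPM and at 71.6 against 364 CPM. *Cygb*, *Tmsb10*, *Col5a2*, *Col6a3*, *Meg3*, *Col6a2*, *Rgs16*, *Phlda1* and *Col5a1* completed the genes ranked lowest in both.

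*Rgs5*, a regulator of G protein signalling, stood apart by *Myh11* level in the control and much less in the LIP library. In the control its level was 1745 CPM in *Myh11*-high and 13980 CPM in *Myh11*-low cells, a log2 ratio of -2.99. In the LIP library it was 8512 and 10734 CPM, a log2 ratio of -0.33. With the division at 500 CPM of *Myh11* the LIP ratio was 0.26, so its sign depends on the division. Both genes belong to the gate, so cells low in both were less likely to be chosen, and these values are a description that the rule partly fixes. All 14 *Myh11*-low control cells and 14 of 15 LIP cells had 1000 CPM of *Rgs5* or more. Cells at or above 1000 CPM of both genes made up 12 of 45 control cells (26.7%, 14.6 to 41.9) and 18 of 44 LIP cells (40.9%, 26.3 to 56.8), and the intervals overlap.

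Ranges of *Myh11* show where the libraries part. Below 1000 CPM of *Myh11*, *Rgs5* stood at 13980 CPM in the control and 10734 CPM in the LIP library. From 1000 to 3000 CPM it stood at 3397 CPM over 11 control and 11436 CPM over 13 LIP cells. At 3000 CPM or more it stood at 835 CPM over 20 control and 5971 CPM over 16 LIP cells. Single cells varied widely within a range: of the cells at 3000 CPM or more, 4 of 20 control and 7 of 16 LIP cells had 1000 CPM of *Rgs5*, with medians of 77.8 and 557 CPM and maxima of 22843 and 27896 CPM.

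**Figure D3:**
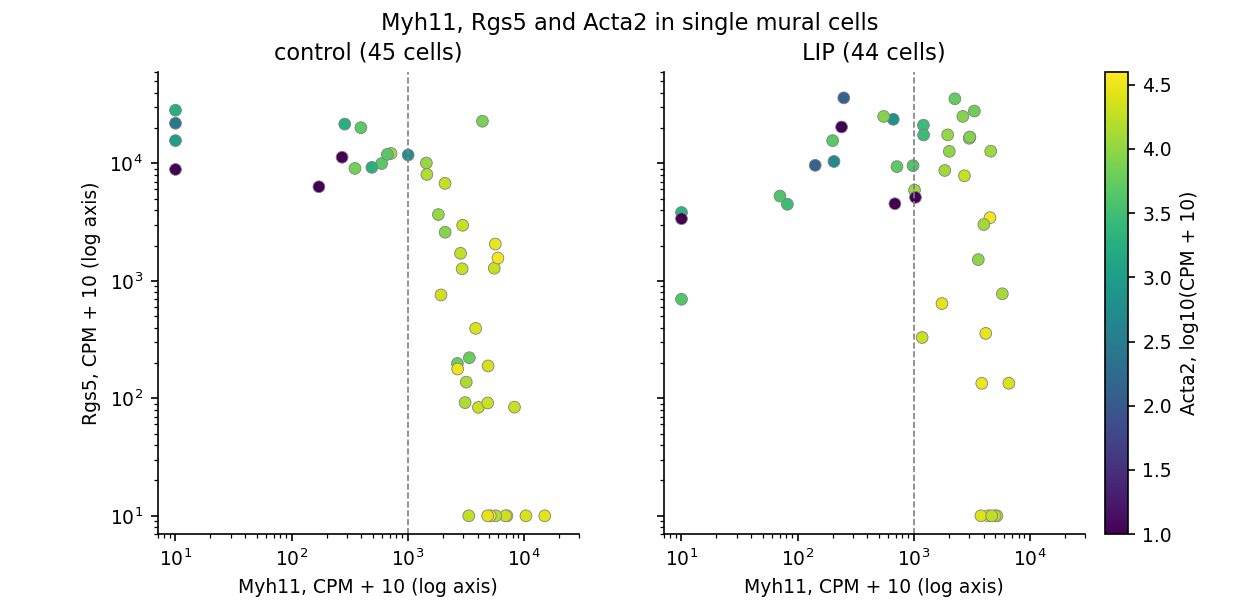
Each point is 1 core mural cell, placed by its *Myh11* (x axis) and *Rgs5* (y axis) level in CPM with 10 added, both on log axes, and coloured by *Acta2* as log10 of CPM plus 10, control on the left (45 cells) and LIP on the right (44 cells); the dashed line marks 1000 CPM of *Myh11*. Right of the line, 12 control and 18 LIP cells have 1000 CPM of *Rgs5* or more, and 19 and 11 have less.

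Between the libraries, 4.34% of 4909 measured genes were at least 2-fold higher and 3.61% lower in LIP over control when all mural cells were summed, and 3.62% of 3753 were higher and 3.41% lower in the core cells. The highest genes over all mural cells were *Cxcl5*, *Mmp13*, *Lum*, *Saa3*, *Spp1*, *Timp1*, *Alpl*, *Ccl2*, *Dmp1*, *Col1a1*, *Col12a1*, *Col1a2*, *Col11a1*, *S100a8* and *Serpinf1*, and the lowest *Mt4*, *Krt13*, *Col17a1*, *Myoc*, *Krt15*, *Wfdc2*, *Mt3*, *Fxyd3*, *Pappa*, *Dapl1*, *4631405K08Rik*, *Wnt4*, *Itgb4*, *Krt24* and *Krt14*. Some of these values were smaller without the 14 cells led by other classes. *Timp1* had a log2 ratio of 4.11 over all mural cells and 3.19 in the core, while *Dmp1*, at 3.59 and 3.73, was not smaller. *Lum*, a fibroblast proteoglycan, went from 17.9 to 706 CPM over all mural cells but stood at 22.6 and 16.8 CPM in the core. *Krt14* went from 3057 to 511 CPM over all mural cells and stood at 83.4 and 29.0 CPM in the core, and *Mmp13*, a collagenase, had no UMI in control mural cells and stood at 402 CPM in all LIP mural cells but 4.58 CPM in the LIP core. Lists of genes differed too. Of the inflammatory response genes 8 of 21 were higher over all mural cells, and 1 of 16 was higher and 1 lower in the core. Of the cell cycle genes 9 of 15 were lower over all mural cells. In the core 3 of 4 were higher, *Stmn1*, *Tyms* and *Hmgb2*, with 74.4% to 78.0% of their *Myh11*-low LIP UMIs in 1 cell. The values that follow are from the core cells unless stated.

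Immediate-early genes, which cells switch on within minutes of a stimulus, were lower as a group. Of 27 measured members of the immediate-early and heat shock list 15 were at least 2-fold lower in the LIP core cells and none was higher, with a median log2 ratio of -1.04, where 3.41% of all measured genes were lower and their median was 0.04. *Fos* stood at 6437 CPM in the control and 1733 CPM in the LIP cells, a log2 ratio of -1.89 (exact interval of the plain ratio -1.99 to -1.80). *Egr1* stood at 2624 and 847 CPM, *Atf3* at 2389 and 476 CPM, *Fosb* at 1444 and 253 CPM, *Nr4a1* at 1415 and 435 CPM and *Jun* at 1788 and 517 CPM. These were spread over cells, with *Fos* found in 41 of 45 control and 34 of 44 LIP cells and 6.3% of the control UMIs in the top cell. *Klf2* and *Klf4*, which encode transcription factors of the vessel wall, stood at 1034 and 250 CPM and at 450 and 96.1 CPM.

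The list was lower at both *Myh11* levels. In *Myh11*-high cells 13 of 26 measured members of the list were lower and in *Myh11*-low cells 13 of 20, with none higher in either. Over all measured genes 2.38% were lower in *Myh11*-high and 8.2% in *Myh11*-low cells. By the same measure the list had 6 of 25 members lower in fibroblasts, where 3.90% of all genes were lower, 4 of 25 in endothelial cells (3.51%) with 2 higher, and 3 of 22 in Schwann cells (3.01%) with 1 higher. It had none of 26 lower in keratinocytes (0.207%) with 3 higher (0.952% of all genes), and none of 22 in neutrophils (2.21%) with 10 higher (9.85%). The median mitochondrial share of a core cell, which moved with this list, was 7.44% in the control and 6.39% in the LIP library, and its part in the result was not tested.

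Basement membrane genes stood on the other side. Of 16 measured members 8 were at least 2-fold higher in the LIP core cells and none was lower, at a median log2 ratio of 1.02, where 3.62% of all genes were higher. *Col4a1* and *Col4a2*, the common type IV collagen chains and neighbours on chromosome 8, stood at 770 and 2006 CPM and at 500.5 and 1186 CPM in control and LIP cells. *Col4a1* had a UMI in 45 of 45 control and 43 of 44 LIP cells. *Col18a1*, the source of endostatin, went from 285 to 822 CPM, and *Lamb1*, a laminin chain, from 20.9 to 133 CPM. *Nid1*, which links laminin to type IV collagen, went from 67.8 to 186 CPM, *Lama4* from 81.7 to 214 CPM, and *Agrn* from 38.2 to 122 CPM. *Col15a1* went from 36.5 to 226 CPM, with a UMI in 4 control and 13 LIP cells. In *Myh11*-high cells 4 of 14 measured members were higher and none lower, at a median of 0.76, where 2.91% of all genes were higher. In *Myh11*-low cells 6 of 12 were higher and 1, *Tinagl1*, lower, where 9.07% of all genes were higher and where 1 cell held 19.8% of the LIP UMIs. Computed on the mean of single-cell CPM values over the core cells, 5 of the 16 were higher.

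The same list had 7 of 17 members higher in LIP endothelial cells, where 3.24% of all genes were higher. It had none of 16 higher in fibroblasts (2.57% of all genes), none of 12 in Schwann cells (2.26%) and none of 14 in keratinocytes (0.952%), counts too small to read against such shares. In endothelial cells *Col4a1* stood at 669.5 CPM in the control and 2096 CPM in the LIP library, and in fibroblasts at 354 and 400 CPM. Whether mural cells differ from the other classes here was not tested, since each class comes from the same 2 libraries.

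Fibrillar and elastic matrix genes were higher in 14 of 33 measured members and lower in 4, where 3.62% of all genes were higher and 3.41% lower. The median log2 ratio was 0.81. Over all mural cells, with the 14 cells led by other classes, 25 of 40 were higher and none lower, at a median of 1.73. There 4.34% of all genes were higher. *Col1a1* stood at 606 CPM in the control and 1538 CPM in the LIP core cells, and *Fn1*, fibronectin, at 153 and 465 CPM. *Col6a3* and *Col5a2* stood at 224 and 838 CPM and at 233 and 681 CPM. *Mgp* stood at 895 and 4616 CPM, found in 20 of 45 and 33 of 44 cells. *Timp1*, an inhibitor of metalloproteinases, went from 17.4 CPM in 5 cells to 240 CPM in 20 cells, and *Mmp14*, a membrane-bound metalloproteinase, from 40.0 to 226 CPM. *Col1a1* is a gene of the fibroblasts too, where it stood at 11180 CPM in the control and 47156 CPM in the LIP library. The part of stray fibroblast RNA in the mural values was not tested. Of the fibrillar and elastic matrix list 6 of 20 members were higher in LIP endothelial cells (3.24% of all genes) and 1 lower. In fibroblasts 7 of 40 were higher (2.57%) and 4 lower, and in neutrophils 4 of 9 higher (9.85%) and 1 lower. In Schwann cells 2 of 15 were higher (2.26%) and 1 lower, and in keratinocytes 1 of 22 was higher (0.952%). In *Myh11*-high cells alone *Col1a1* had a log2 ratio of 0.38 and *Mgp* of 2.59.

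Of the receptors and signals of mural cells, *Rgs5* went from 4183 to 9361 CPM, a log2 ratio of 1.16 (1.09 to 1.23 for the plain ratio). In *Myh11*-high cells the log2 ratio was 2.28 and in *Myh11*-low cells it was -0.38. *Pdgfrb*, the receptor for platelet-derived growth factor, went from 283 to 565 CPM and was found in 43 of 45 and 44 of 44 cells. Its log2 ratio of 0.97 was under 2-fold, at 1.14 in *Myh11*-high and 0.28 in *Myh11*-low cells. Of 8 measured Notch genes 1 was higher and 1 lower, at a median of -0.01, where 3.62% of all genes were higher and 3.41% lower, counts too small to read against such shares, with *Heyl*, a Notch target, at 71.2 and 169 CPM and *Hes1* at 963 and 465 CPM. Most vasoactive receptors and channels did not pass 2-fold, with 2 of 22 measured members higher and 3 lower, at a median of -0.38, and these counts too are too small to read against the shares over all genes. *Ednrb*, an endothelin receptor, went from 29.5 to 82.4 CPM and *Ano1*, a calcium-activated chloride channel, from 53.9 to 139 CPM, while *Npy1r*, a receptor for neuropeptide Y, went from 351 to 160 CPM and *Kcnma1*, a calcium-activated potassium channel, from 69.5 to 16.8 CPM. *Cacna1h*, a calcium channel subunit, was the other lower member.

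Contractile genes mostly differed by less than 2-fold between the libraries. None of 32 measured members was at least 2-fold higher and 3 were lower, *Susd5*, *Synpo2* and *Pln*, with a median log2 ratio of -0.48, where 3.62% of all genes were higher and 3.41% lower. *Acta2* stood at 17174 CPM in the control and 12444 CPM in the LIP core cells, and *Tagln* at 12670 and 8631 CPM. *Myh11*, which divides the cells, stood at 3999 and 2055 CPM, with 17.3% of the control UMIs in 1 cell. Within *Myh11*-high cells none of the 32 was 2-fold lower, and the median was -0.21. Within *Myh11*-low cells 5 of 18 were lower, *Sncg*, *Filip1l*, *Myl9*, *Flna* and *Tagln*, at a median of -0.51, where 8.2% of all genes were lower, and with the top cell of each gene left out 5 were lower and 1 higher.

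Pericyte genes had 1 of 16 members higher and 2 lower in the core cells, at a median of 0.23, where 3.62% of all genes were higher and 3.41% lower. The medians at the 2 *Myh11* levels had opposite signs. In *Myh11*-high cells 3 of 10, *Steap4*, *Ndufa4l2* and *Pdgfrb*, were higher and none lower, at a median of 0.39, where 2.91% of all genes were higher. In *Myh11*-low cells none of 12 was higher and 3, *Colec11*, *Vtn* and *Art3*, were lower, at a median of -0.61, where 8.2% of all genes were lower. With the top cell of each gene left out on each side, tried after the data had been seen, 3 of 10 were higher in *Myh11*-high cells, and 1 of 12 was higher and 2 lower in *Myh11*-low cells. The difference between the levels was not tested.

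**Figure D4:**
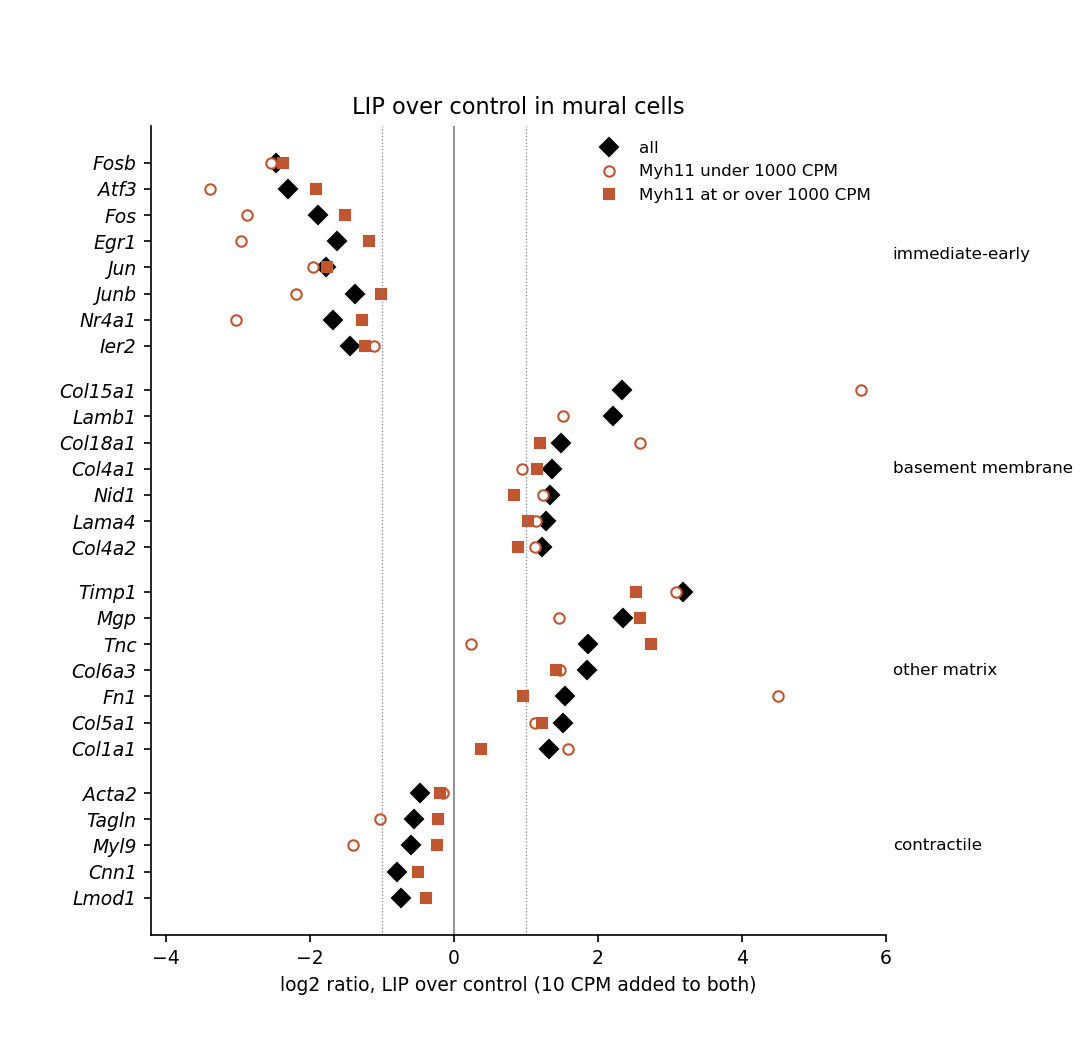
Log2 ratio of LIP over control in core mural cells, with 10 CPM added to both sides (x axis), for genes grouped by list (y axis); diamonds are all core cells, filled squares cells at or over 1000 CPM of *Myh11* and open circles cells under it, where measured, and dotted lines mark 2-fold. The immediate-early genes drawn lie left of 0 and the basement membrane genes right of it, and diamonds of contractile genes such as *Acta2* at -0.46 lie between the dotted lines.

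Inflammatory genes were uneven between cells, and their counts are also given at each *Myh11* level. *Ccl2*, a chemokine that draws monocytes, went from 57.4 CPM in 6 control to 551 CPM in 14 LIP core cells, with 321 of the 361 LIP UMIs (88.9%) in 2 cells. Without the 2 cells richest in it, *Ccl2* stood at 69.6 CPM in the other 42 LIP cells, and, treated alike, at 19.9 CPM in the other 43 control cells. *Cxcl1*, which draws neutrophils, went from 551 to 237 CPM and *Ccl11*, which draws eosinophils, from 462 to 130 CPM. Without the 2 richest cells on each side *Cxcl1* stood at 365 and 111 CPM and *Ccl11* at 165.5 and 77.4 CPM. In the control 65.8% of the *Ccl11* UMIs lay in 2 cells. Of 11 measured chemokine and cytokine genes 3 were higher and 2 lower, of 16 inflammatory response genes 1 was higher and 1 lower, and of 10 interferon-stimulated genes 2 were higher, where 3.62% of all genes were higher and 3.41% lower. These counts pool both *Myh11* levels, which are given apart next. In *Myh11*-low cells 6 of 9 chemokine and cytokine genes were lower and 1 higher, at a median of -1.62, and 6 of 11 inflammatory response genes were lower, at a median of -1.01, where 8.2% of all genes were lower. In *Myh11*-high cells 4 of 9 chemokine and cytokine genes were higher and 1 lower, at a median of 0.85, and 5 of 13 inflammatory response genes were higher, at a median of 0.01, where 2.91% of all genes were higher. With the top cell of each gene left out on each side, which like the removal of 2 cells was tried after the data had been seen, 7 of 9 chemokine and cytokine genes were lower in *Myh11*-low cells and 1 of 9 was higher in *Myh11*-high cells, and of the inflammatory response genes 3 of 11 were lower and 5 of 13 higher. The difference between the levels was not tested.

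Single cells carried several of the highest LIP genes. *Hist1h2ap*, a histone gene of dividing cells, had 155 of its 157 UMIs in *Myh11*-low LIP cells in 1 cell of 49604 UMIs, which held 19.8% of all UMIs of that group and also 29 of 29 UMIs of *Top2a* and 18 of 21 of *Mki67*, both genes of dividing cells. *Mbp*, a myelin gene, had 75 of its 76 UMIs in *Myh11*-low LIP cells in 1 other cell. In the control, 72.5% of the UMIs of *Dcn*, a fibroblast proteoglycan that went from 525 to 51.9 CPM, lay in 1 cell, and with the top cell left out on each side its log2 ratio was -1.88 in place of -3.11. *Igfbp3* had 71.1% of its LIP UMIs in 1 cell. Of the genes that ranked lowest, *Ptgis*, prostacyclin synthase, went from 174 CPM in 11 cells to 10.7 CPM in 3, and *Tnfaip6* from 101 CPM in 9 cells to 4.58 CPM in 2. *Socs1*, an inhibitor of cytokine signalling, went from 104 to 12.2 CPM. *Cavin2*, *Chchd10*, *Rasd1*, *Sox6*, *Sik1* and *Gm26802* also ranked among the lowest, and *Dmp1*, *Bpgm*, *Stmn1*, *Igfbp2* and *Arhgdib* among the highest. Of the *Myh11*-low LIP UMIs, 75.2% of *Stmn1* and 64% of *Bpgm* lay in 1 cell for each gene. For *Dmp1*, 58.7% of the LIP core UMIs lay in 2 cells.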

How the data were processed

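Gingival and alveolar bone surface cells of 2 libraries were sequenced with the 10x Genomics 3′ v3 chemistry. Reads were mapped to mm10 by the authors using Cell Ranger (3.1.0 in the matrix header), and the deposited values are UMI counts of each gene in each barcode, not normalized. Barcodes with 200 to 7500 genes, at most 60000 UMIs and at most 10% mitochondrial UMIs were kept, as in the study's methods. UMI counts of a group of cells were summed and given as CPM. With 1 library per condition no test was run. Intervals (Clopper-Pearson for shares, exact Poisson for levels, exact conditional for ratios, 95%) cover counting error only, and so do the floors of 3 counts. The members, gene lists and comparisons were chosen with earlier results of these data known. Genes named in a comparison are the gate genes, up to 6 genes of each list by level and by ratio, and the 15 highest and 15 lowest ratios (20 against other cells) with 50 or more UMIs, found in at least 5 cells of the higher side and neither mitochondrial nor ribosomal. Names of further genes, with the core cells and the division at 1000 CPM of *Myh11*, were chosen after values were seen. Of the genes this rule names, 1 is not reported here. Thinning drew 2000 UMIs per cell. Alternatives changed the number of gate genes, the mitochondrial limit, the UMI minimum and the added CPM, left out Scrublet doublets or cells with markers of another class, and thinned the cells. Gene positions are from GENCODE vM21 on GRCm38. Methods were tested on simulated data. Python 3.11.15, numpy 2.4.6, scipy 1.17.1, pandas 2.3.3, scanpy 1.11.5 and matplotlib 3.10.9 were used.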

Additional observations from a re-analysis of the deposited data

Results flagged for a closer look

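Of the genes read at both *Myh11* levels, 4 stood on opposite sides in the libraries by at least 2-fold, and the difference was not tested since each condition has 1 library. *Cxcl10*, a chemokine induced by interferon, had a log2 ratio of *Myh11*-high over *Myh11*-low core cells of -7.04 in the control and 4.48 in the LIP library. In the control 90.3% of the *Myh11*-low UMIs of *Cxcl10* lay in 1 cell, and in the LIP library 98.7% of the *Myh11*-high UMIs. *Iigp1*, an interferon-induced GTPase, had ratios of -4.02 and 1.11, with 98.2% of its LIP *Myh11*-high UMIs in 1 cell. *Il6* had ratios of -2.17 and 1.18, and *Isg15*, an interferon-stimulated gene, of -1.78 and 1.95.

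A further 20 control and 16 LIP barcodes met the mural rule but not the limits on kept cells. Of these 19 and 12 were over the mitochondrial limit. Their *Rgs5* and *Myh11* stood at 1085 and 2863 CPM in the control and at 992 and 471 CPM in the LIP library, and 17 control and 8 LIP barcodes had a UMI of 10 or more of the 20 mural genes outside the rule.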

How the results depend on the processing

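No paired analysis was possible because each condition has 1 library, and no library could be left out. A share was said to stay if it lay in the interval of the main share, and a count or ratio if it lay within 1.5-fold of the main one. Of 63 alternative values of shares and gene counts 41 stayed and 22 moved, and of 327 alternative values of lists and genes 245 stayed and 73 moved. With a mitochondrial limit of 5% mural cells were 2.75% of control and 2.45% of LIP cells, *Myh11* was found in 60% and 64.7% of them, and the *Myh11* contrast had 189 and 233 genes past 2-fold. With cells of 3 or more markers of 1 other class left out, mural cells were 1.25% and 1.71%, *Myh11* was found in 100% of LIP cells (no LIP contrast could be made), the control contrast had 127 genes and LIP over control 89. Thinning left *Myh11* in 67.9% and 67.3%, and the LIP core cells had it in 93.2%. With a minimum of 20 UMIs the counts were 1332, 1208 and 660, and with none 2719, 2281 and 803. The LIP contrast at 1000 CPM of *Myh11* had 397 genes, and LIP over control without the 14 cells and 3 further cells rich in dividing-cell, Schwann cell or fibroblast genes 220. Against the core contrast, all mural cells with over without *Myh11* reversed *Higd1b* (0.30) and *Pdgfrb* (0.49) in the control, and *Kcnj8* (1.20), *Abcc9* (0.76), *Higd1b* (3.56) and *Mgp* (0.59) in the LIP library. LIP over control reversed for *Rgs5* (-0.38) and *Dcn* (0.68) in *Myh11*-low cells and for *Igfbp3* (-1.10) in *Myh11*-high cells. Of the genes past 2-fold in the *Myh11* contrast 72.9% and 70.5% were higher, and with thinning 56.9% and 59.8%. With the top cell of each gene left out 93.4% and 86.7% were higher. That step takes a larger part from the 9 cells without *Myh11* in each library than from the 44 and 41 with it. The last shares therefore cannot be read against the first. Depth limits every value: under 60 cells per library, and a floor of 26.2 CPM in the control and 12 CPM in the LIP *Myh11*-low cells.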

Other observations

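Chemokine and interferon genes were also compared between *Myh11* levels within each library. In the control core cells 6 of 6 measured chemokine and cytokine genes were at least 2-fold lower in *Myh11*-high cells, *Cxcl10*, *Cxcl1*, *Cxcl12*, *Il6*, *Il34* and *Ccl11*, and in the LIP library 2 of 10 were lower and 3 higher. Some of these genes rested on few control cells. Of the control core UMIs, 65.8% of *Ccl11* and 36.3% of *Cxcl1* lay in 2 cells for each gene. Most *Myh11*-low control UMIs of *Cxcl10* lay in 1 cell. Over all measured genes 16% were higher and 8.22% lower in the control, and 11.6% and 7.42% in the LIP library, so that 2 of 10 lower is a count too small to read against such a share. *Cxcl1* stood at 197.5 against 1971 CPM in the control and at 281 against 164 CPM in the LIP library. *Cxcl12*, which holds leukocytes and stem cells near vessels, stood at 102 against 497 CPM in the control and at 185 against 172 CPM in the LIP library. Of the interferon-stimulated genes 8 of 8 were lower in the control, among them *B2m*, the light chain of class I antigen-presenting molecules, at 271 against 1369 CPM. The control counts of both lists rest on 14 *Myh11*-low cells. In the LIP library 2 of 10 were lower and 3 higher, and *B2m* stood at 494 against 1035 CPM. The immediate-early and heat shock list had 11 of 22 members higher in *Myh11*-high LIP cells, where 11.6% of all genes were higher. In the control 4 of 25 members were higher and 2 lower, near the shares over all genes.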
